A study of Mus musculus with 18 samples.

Results

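The microRNA processing and Argonaute genes were followed through ultraviolet (UV) skin carcinogenesis in the mouse. They were the 10 genes Drosha, Dgcr8, Dicer1, Xpo5, Tarbp2, Prkra, Ago1, Ago2, Ago3 and Ago4, chosen by symbol, and all 10 were found among the 14521 named genes of the expression table. The samples came from 6 littermate mice of the outbred SKH-1E strain. This strain is hairless, lacks function of the Hairless gene and develops skin tumours under UV light. All animals, the source of the controls included, were female and had been irradiated over a long period with a solar simulator. Each mouse gave skin without a lesion (CHR), 1 papilloma (PAP), a benign outgrowth of the epidermis, and 1 cutaneous squamous cell carcinoma (SCC), so that 18 libraries formed 3 groups of n = 6. No group was free of UV exposure, and an unexposed skin group was not analysed here.

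MicroRNAs are made stepwise. In the nucleus the microprocessor, composed of the RNase III enzyme DROSHA and its RNA-binding partner DGCR8, cuts the primary transcript into a hairpin, which exportin 5 (the product of Xpo5) carries to the cytoplasm together with RAN. There DICER1, helped by the double-stranded RNA-binding proteins TARBP2 and PRKRA, cuts the hairpin to a short duplex. One strand is held by an Argonaute protein, AGO1 to AGO4, which finds messenger RNAs by pairing with the seed of the microRNA, and AGO2 is the member able to cut a well-paired target. These genes serve microRNAs in all layers of the skin, and the pathway is required for normal epidermis and hair follicles.

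Against irradiated skin, 3 of the 10 genes were called higher in papilloma, and 2 higher and 2 lower in carcinoma. These counts lie near the shares of all genes. With so few calls, no split between steps of the pathway is read from them. In papilloma, Drosha rose 1.60-fold, Xpo5 1.44-fold and Dgcr8 1.22-fold in mean normalised reads, and 23.3% of all genes were called higher. In carcinoma, Drosha and Xpo5 were higher and Dgcr8 was not called, and 15.8% of all genes were called higher. Ago4 and Ago1 were lower in carcinoma than in CHR, with mean levels of 0.47 and 0.69 times that of CHR, where 22.7% of all genes were called lower. Dicer1, Tarbp2, Prkra, Ago2 and Ago3 passed the test in no comparison, and none of the 10 genes passed it between carcinoma and papilloma. Of 14 alternative settings, 6 lost the call of Dgcr8 in papilloma. In carcinoma, 6 lost that of Ago1, 3 that of Ago4 and 2 that of Xpo5.

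Dgcr8 and Xpo5 are themselves hosts of microRNAs, whose mature sequences are shown because the measured host transcripts include or flank them. Sequences and positions are from RefSeq for GRCm38, written 5′ to 3′, with the seed (bases 2 to 8) in capitals. The miR-1306 pair lies in a coding exon of Dgcr8 (chr16:18284248-18284268 and chr16:18284288-18284310, minus strand), the miR-3618 pair in an untranslated exon of Dgcr8 (chr16:18284562-18284583 and chr16:18284602-18284623, minus strand), and the miR-693 pair in an intron of Xpo5 (chr17:46231551-46231571 and chr17:46231581-46231603, plus strand). The 6 seeds were all different.
mmu-miR-1306-5p: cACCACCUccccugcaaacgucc
mmu-miR-1306-3p: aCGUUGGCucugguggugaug
mmu-miR-3618-5p: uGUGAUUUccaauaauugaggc
mmu-miR-3618-3p: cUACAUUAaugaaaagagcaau
mmu-miR-693-5p: cAGCCACAuccgaaaguuuuc
mmu-miR-693-3p: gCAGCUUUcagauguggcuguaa

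Levels below are normalised reads, that is, reads recovered from the deposited values and divided by the size factor of the library. Log2 fold changes are on the scale log2(deposited value + 1), given with the standard error (SE), and were tested with limma with the mouse as a block and Benjamini-Hochberg adjustment over all 14521 genes. A gene is called higher or lower where the adjusted p was under 0.05. Since the 3 samples of a mouse were compared with each other, level differences between mice are removed by the block. The p-values weigh the mean difference within a mouse against the spread of such differences across 6 outbred littermates, each sampled once per group. This spread is pooled over the 3 groups and drawn by limma towards that of the other genes. In these bulk samples, fewer cells of a type and less RNA per cell cannot be told apart.

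Libraries held 15.4 to 21.0 M recovered reads, with means of 18.5 M in CHR, 18.6 M in PAP and 18.4 M in SCC. The 8 keratinocyte markers were detected in all 18 libraries. The summed level of 6 skeletal muscle genes ranged from 346681 to 524440 normalised reads in CHR, from 123 to 25855 in PAP and from 237 to 173274 in SCC, and 6 of 6 were called lower in both lesions. Of the other marker lists, 5 of 5 sebaceous gland genes, 5 of 5 myeloid genes and 4 of 5 adipocyte genes were lower in both lesions, 5 of 5 T cell genes in papilloma and 4 of 5 in carcinoma, 5 of 6 dermal fibroblast genes in papilloma and 1 of 6 in carcinoma, whereas 6 of 6 proliferation genes were higher in both. Keratinocyte genes were higher for 5 of 8 and lower for 1 in papilloma, and higher for 3 and lower for 2 in carcinoma, and of 4 endothelial genes 2 were lower in papilloma and 1 was lower and 1 higher in carcinoma. Carcinoma was higher than papilloma for 5 of 6 skeletal muscle, 5 of 5 myeloid and 2 of 6 dermal fibroblast genes. The same held for 2 of 4 endothelial genes and 1 of 5 T cell genes. It was lower for 2 of 8 keratinocyte genes and 1 of 6 proliferation genes. Of all genes, 8.75% were called higher and 1.10% lower in that comparison. These lists moved in the same comparisons as the genes described here, and their part in the results was not tested.

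In papilloma against CHR, 3 members of the set of 10 passed upwards and 0 downwards. Of all genes, 52.6% were called in this comparison, 23.3% higher and 29.3% lower. The median log2 fold change of the 10 genes was 0.05, against 0.00 over all genes. The PAP values lay above all CHR values, with no overlap, for 2 of the 10 (Drosha and Xpo5) and for 14.4% of all genes, and below them for 0 of the 10 and 19.2% of all genes. In carcinoma against CHR, 2 genes were called higher and 2 lower, where 38.4% of all genes were called (15.8% higher and 22.7% lower), and the median was 0.03 against -0.02 over all genes. Groups did not overlap for Drosha and Xpo5, with SCC above, as for 8.49% of all genes, and for Ago4, with SCC below, as for 11.2% of all genes. In carcinoma against papilloma, 0 of the 10 genes were called by limma, where 9.85% of all genes were called (8.75% higher and 1.10% lower). An unadjusted p under 0.05 was found for 0 of the 10 and for 3570 of all 14521 genes, and limma-voom called 0 of the 10 and 1738 of all genes.

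**Figure D1:**
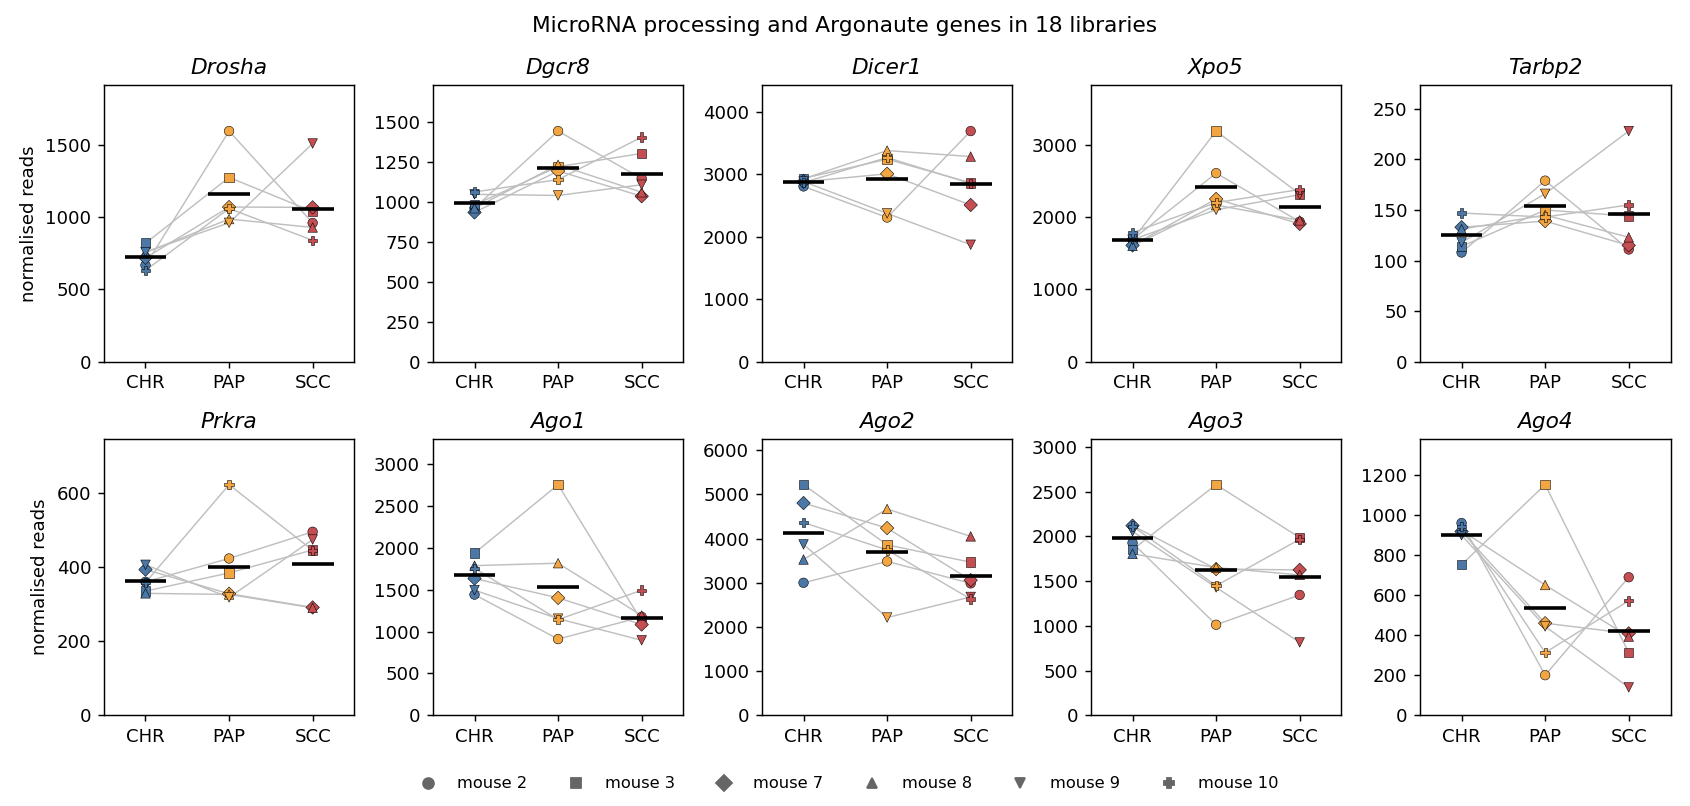
Normalised reads (y axis, linear, from 0) of the 10 genes in CHR, PAP and SCC, with 1 point per library, a marker shape per mouse, grey lines joining the samples of a mouse and a black bar at the mean of 6. Drosha and Xpo5 lie above CHR in all 12 lesions, and Ago4 lies below CHR in all 6 carcinomas but reaches 1154 reads in the papilloma of mouse 3.

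Drosha (chr15:12824815-12935291, plus strand), which encodes the RNase III enzyme of the microprocessor, had 632, 736 and 819 normalised reads in CHR (lowest, median and highest of 6), 960, 1064 and 1594 in papilloma and 839, 999 and 1508 in carcinoma. The lowest lesion, the carcinoma of mouse 10, was above the highest CHR sample. The papilloma of mouse 2 and the carcinoma of mouse 9 were the highest of their groups, and the other 5 papillomas had at most 1274 reads. The log2 fold change was 0.61 ± 0.14 (SE, adjusted p = 0.00265) in papilloma and 0.48 ± 0.14 (adjusted p = 0.0154) in carcinoma, with 6 of 6 mice higher in both. Between carcinoma and papilloma it was -0.12 ± 0.14 (adjusted p = 0.634).

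Dgcr8 (chr16:18253948-18289246, minus strand), the RNA-binding partner of DROSHA, had 935, 972 and 1063 reads in CHR, 1041, 1207 and 1444 in papilloma and 1036, 1128 and 1406 in carcinoma. Among papillomas, only that of mouse 9 reached down into the range of CHR, the carcinomas of mice 7 and 8 did so too, and the papilloma of mouse 2 was again the highest. The log2 fold change was 0.27 ± 0.10 in papilloma (adjusted p = 0.0345, 5 of 6 mice higher), and 0.22 ± 0.10 in carcinoma (adjusted p = 0.0842, 6 of 6 mice higher). The call in papilloma was lost without mouse 2, 3, 7 or 8 (adjusted p = 0.112, 0.0792, 0.0950 and 0.0977) and when the CHR and PAP libraries were fitted alone (adjusted p = 0.0558), while the carcinoma passed under limma-voom (adjusted p = 0.0334) and under TMM scaling (adjusted p = 0.0454). Of the exons of Dgcr8, 10.7% lie opposite Trmt2a on the other strand, and the strandedness of counting was not given in the sources used here, so reads of this stretch cannot be assigned to one of the genes. Trmt2a itself had a log2 fold change of 0.22 ± 0.10 in papilloma (adjusted p = 0.0748).

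The balance of the microprocessor partners was compared as the log2 ratio of Dgcr8 to Drosha in deposited values. The ratio was 0.42 ± 0.16 (SD, n = 6) in CHR, 0.08 ± 0.16 in papilloma and 0.16 ± 0.37 in carcinoma. It was lower in papilloma in 6 of 6 mice, with a difference of -0.34 ± 0.23 (SD), and flipping signs over the 6 mice (exact permutation test, two-sided) gave p = 0.0312, the lowest value possible here, and a Benjamini-Hochberg adjusted p of 0.281 over the 9 ratio tests. A p at this floor can pass the adjustment over 9 tests only where at least 6 of them reach it. The adjusted test could thus hardly pass for any of the ratios tested, and no conclusion is drawn from it or from the unadjusted p. The carcinomas divided, with 4 of 6 lower than CHR and a difference of -0.26 ± 0.33 (exact permutation p = 0.125, adjusted p = 0.562).

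Xpo5 (chr17:46202782-46243598, plus strand), which encodes the export receptor for microRNA hairpins, had 1602, 1685 and 1787 reads in CHR, 2101, 2226 and 3189 in papilloma and 1906, 2132 and 2381 in carcinoma. CHR was tightly grouped and all 12 lesions lay above it, with the papilloma of mouse 3 far above the next papilloma, that of mouse 2 with 2607 reads. The log2 fold change was 0.50 ± 0.10 (adjusted p = 0.00119) in papilloma and 0.33 ± 0.10 (adjusted p = 0.0204) in carcinoma, with 6 of 6 mice higher in both. The carcinoma call was lost without mouse 8 (adjusted p = 0.0541) or mouse 9 (adjusted p = 0.0511), at log2 fold changes of 0.34 and 0.31. Between carcinoma and papilloma the difference was -0.17 ± 0.10 (adjusted p = 0.343).

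**Figure D2:**
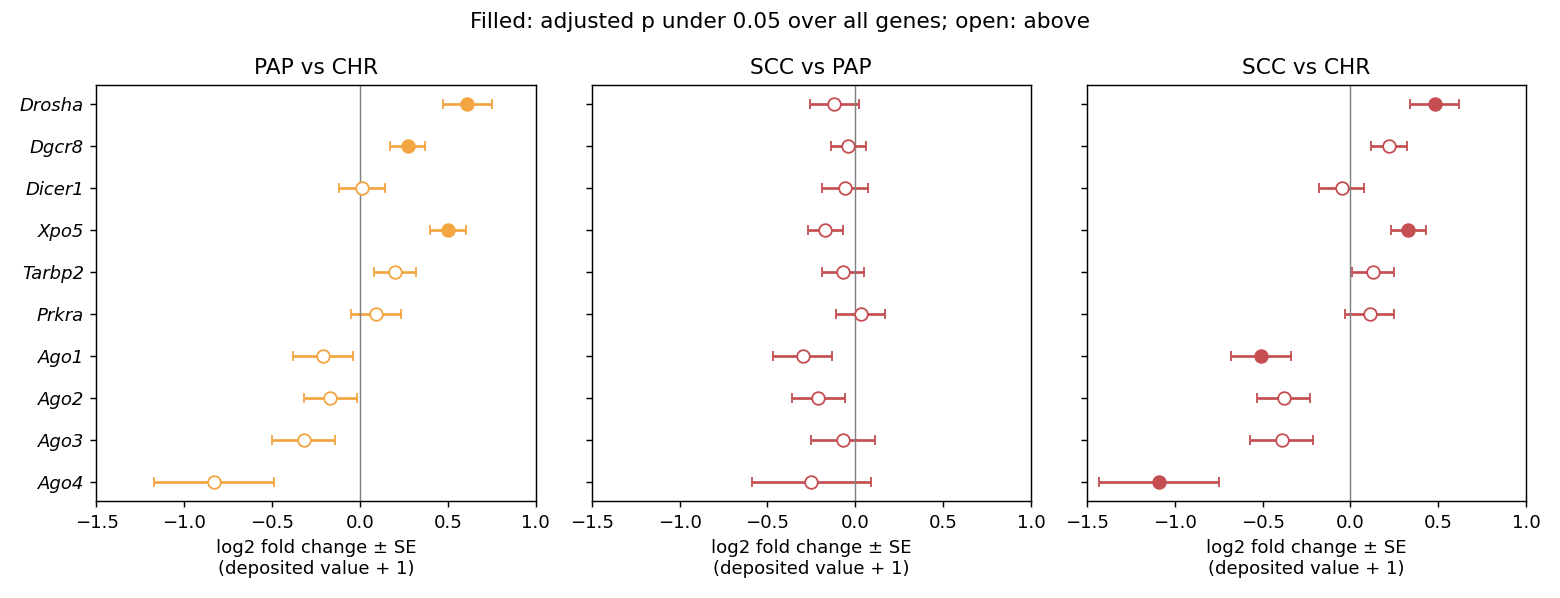
Log2 fold change (x axis, log2 of the deposited value + 1) of each gene in the 3 comparisons, with bars for 1 SE. Filled points have an adjusted p under 0.05 over all genes. Drosha, Dgcr8 and Xpo5 are filled on the right in papilloma, Drosha and Xpo5 on the right and Ago1 and Ago4 on the left in carcinoma against CHR, and no point is filled in carcinoma against papilloma.

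Xpo5 was the only one of the 10 genes with another gene of the table within 321 bases on both sides. Before its start, 136 bases away and transcribed in the opposite direction, lies Polh, which encodes DNA polymerase eta, the enzyme that copies past UV lesions. Polh rose by 0.80 ± 0.10 on the log2 scale in papilloma (adjusted p = 3.91e-05) and 0.45 ± 0.10 in carcinoma (adjusted p = 0.00495). After its end, 321 bases away and running towards it, lies Polr1c, a subunit shared by RNA polymerases I and III, with 0.59 ± 0.12 (adjusted p = 0.00124) and 0.38 ± 0.12 (adjusted p = 0.0256). Over the 18 libraries, after removal of the mean of each mouse, Xpo5 correlated with Polr1c at r = 0.97, the highest among 12691 genes, and with Polh at r = 0.92. Polh was singled out after its values were seen.

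The stretch between Polh and Xpo5 holds the letters CGCATGCG, the palindromic core of the site of the transcription factor NRF1, at 2 places, and this motif was present in 1.87% of 32851 RefSeq promoters of mouse, each a short stretch around the start of a gene. The windows are from RefSeq for GRCm38, plus strand, at chr17:46202718-46202743 and chr17:46202741-46202766, with the motif in capitals.
Xpo5 window 1: ttccgcgcgCGCATGCGccgtggcgg
Xpo5 window 2: cggctccggCGCATGCGcagcgctgg
Drosha likewise starts 165 bases from a gene on the opposite strand, 6030458C11Rik, which had a log2 fold change of 0.37 ± 0.10 in papilloma (adjusted p = 0.00805) and 0.26 ± 0.10 in carcinoma (adjusted p = 0.0606) and correlated with Drosha at r = 0.84. The ETS letters CCGGAAG, here on the other strand, occurred in that stretch at chr15:12824652-12824677 (plus strand) and in 8.86% of all promoters.
Drosha window: ccggttgcgCTTCCGGattggaggac
Of the 10 genes, 9 had a promoter in the table used, all but Ago2. On either strand, GGGCGG (SP1 box) was present in 8 of the 9 and 35.7% of all promoters, CCGGAAG in Drosha and Ago3, and CGCATGCG in Xpo5. TGANTCA (AP-1), CACGTG (E-box) and the E2F letters TTTCCCGC and TTTGGCGC were in 0 of the 9, against 7.81%, 7.15% and 1.56% of all promoters. A gene was counted where any of its promoters matched, whereas the shares count every promoter, so the units are not alike. SP1 boxes may share bases with each other and with other GC-rich motifs. A match describes letters only.

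Dicer1 (chr12:104687742-104751952, minus strand), the RNase III enzyme that cuts the hairpin in the cytoplasm, had 2808, 2884 and 2937 reads in CHR, 2310, 3127 and 3382 in papilloma and 1874, 2860 and 3694 in carcinoma. The 6 CHR samples lay close together, whereas the lesions spread to both sides of them. The SD of log2(value + 1) was 0.02 in CHR, 0.24 in papilloma and 0.33 in carcinoma. The carcinoma of mouse 9 was the lowest of 18 libraries and that of mouse 2 the highest. The mean shift was 0.01 ± 0.13 in papilloma (adjusted p = 0.971) and -0.05 ± 0.13 in carcinoma (adjusted p = 0.797), and its sign changed between settings.

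Tarbp2 and Prkra encode RNA-binding partners of DICER1. Tarbp2 (chr15:102518192-102523676, plus strand) had 108, 125 and 147 reads in CHR, 139, 147 and 179 in papilloma and 111, 133 and 228 in carcinoma. All 3 groups overlapped, and the carcinoma of mouse 9 and the papilloma of mouse 2 were the highest of their groups. The log2 fold change was 0.20 ± 0.12 in papilloma (adjusted p = 0.160) and 0.13 ± 0.12 in carcinoma (adjusted p = 0.402). Of the 50-base stretches of Tarbp2 exons, 14.3% also occur in Gm18584 or Gm18561, so that part of its reads could have been shared or lost.

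Prkra (chr2:76629898-76648015, minus strand) had 329, 359 and 406 reads in CHR, 318, 356 and 622 in papilloma and 290, 445 and 495 in carcinoma. The papilloma of mouse 10 stood apart at 622 reads, and the next papilloma had 423. The carcinomas formed 2 with 290 and 291 reads (mice 8 and 7) and 4 with 445 to 495. Log2 fold changes were 0.09 ± 0.14 in papilloma (adjusted p = 0.613) and 0.11 ± 0.14 in carcinoma (adjusted p = 0.531). The log2 ratio of Prkra to Tarbp2 in deposited values, a scale that compresses ratios of weakly expressed genes, was 1.16 ± 0.15 (SD, n = 6) in CHR, 1.05 ± 0.34 in papilloma and 1.15 ± 0.30 in carcinoma, with adjusted p of 0.938 or more in the 3 exact permutation tests. The difference of papilloma from CHR was -0.11 ± 0.45 (SD, n = 6) on this scale and -0.20 ± 0.56 in recovered normalised reads, that of carcinoma from CHR was -0.01 ± 0.31 and -0.05 ± 0.40, and that of carcinoma from papilloma was 0.10 ± 0.38 and 0.15 ± 0.48.

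Ago4 (chr4:126489541-126533472, minus strand) had the largest log2 fold changes of the 10 genes in size in both comparisons with CHR, though not between carcinoma and papilloma. It had 754, 923 and 962 reads in CHR, 201, 453 and 1154 in papilloma and 140, 402 and 691 in carcinoma. All 6 carcinomas and 5 of 6 papillomas lay below every CHR sample, and the papilloma of mouse 3 lay above them all. The log2 fold change was -1.09 ± 0.34 in carcinoma (adjusted p = 0.0220, 6 of 6 mice lower) and -0.83 ± 0.34 in papilloma (adjusted p = 0.0518, 5 of 6 mice lower). The carcinoma call was lost without mouse 7, 8 or 9 (adjusted p = 0.0544, 0.0589 and 0.0931). The papilloma passed without mouse 3 (-1.12 ± 0.32, adjusted p = 0.0152), without the mouse as a block (adjusted p = 0.0310) and when CHR and PAP were fitted alone (adjusted p = 0.0397).

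Ago1 (chr4:126435012-126468583, minus strand) had 1441, 1694 and 1936 reads in CHR, 910, 1278 and 2753 in papilloma and 896, 1151 and 1493 in carcinoma. Of the carcinomas, only that of mouse 10 reached the range of CHR, and the papilloma of mouse 3 was the highest of all 18 libraries. The log2 fold change was -0.51 ± 0.17 in carcinoma (adjusted p = 0.0331, 6 of 6 mice lower) and -0.21 ± 0.17 in papilloma (adjusted p = 0.328). The carcinoma call was lost without mouse 7, 8 or 9 (adjusted p = 0.0833, 0.0831 and 0.103), under limma-voom (adjusted p = 0.0511) and under TMM scaling (adjusted p = 0.0576), at log2 fold changes of -0.50 to -0.47.

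Ago3 (chr4:126331704-126429556, minus strand) had 1804, 1991 and 2119 reads in CHR, 1012, 1541 and 2577 in papilloma and 815, 1597 and 1986 in carcinoma. The papilloma of mouse 3 was again above all CHR samples, the papilloma of mouse 2 and the carcinoma of mouse 9 were the lowest of their groups, and the groups overlapped. Log2 fold changes were -0.32 ± 0.18 in papilloma (adjusted p = 0.148) and -0.39 ± 0.18 in carcinoma (adjusted p = 0.104). Without mouse 3 the papilloma passed (-0.48 ± 0.18, adjusted p = 0.0463).

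Ago2 (chr15:73095844-73184935, minus strand), which encodes the Argonaute with slicing activity, had 3000, 4116 and 5220 reads in CHR, 2213, 3801 and 4670 in papilloma and 2631, 3023 and 4050 in carcinoma. It was already spread in CHR, and the groups overlapped. Log2 fold changes were -0.17 ± 0.15 in papilloma (adjusted p = 0.363) and -0.38 ± 0.15 in carcinoma (adjusted p = 0.0596, 5 of 6 mice lower). The carcinoma passed without mouse 2 (adjusted p = 0.0483) or mouse 8 (adjusted p = 0.0290). The log2 ratio of Ago2 to Ago1 was 1.25 ± 0.22 (SD, n = 6) in CHR, 1.29 ± 0.52 in papilloma and 1.38 ± 0.32 in carcinoma, with adjusted p of 0.938 or more in the 3 exact permutation tests.

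Ago3, Ago1 and Ago4 lie in a row on chromosome 4, all on the minus strand, with 5.46 kb between Ago3 and Ago1 and 21.0 kb between Ago1 and Ago4. After removal of the mean of each mouse, Ago4 correlated over the 18 libraries with Ago1 at r = 0.91 and with Ago3 at r = 0.89, and Ago1 with Ago3 at r = 0.73. Other table genes starting within 500 kb of Ago4 numbered 20, of which 4 were called higher and 3 lower in papilloma and 1 higher and 2 lower in carcinoma, with median log2 fold changes of 0.07 and 0.05. The next gene beyond Ago4, Clspn (a checkpoint protein of DNA replication), had a log2 fold change of 1.13 ± 0.14 in papilloma (adjusted p = 2.58e-05), the opposite direction to Ago4. Around all 10 genes, 118 different genes started within that distance, and 27 were called higher and 34 lower in papilloma and 12 and 25 in carcinoma. Around Xpo5 there were 24, with 12 higher and 4 lower in papilloma and a median of 0.39, and 7 higher and 5 lower in carcinoma against CHR and a median of 0.15. Over all genes, 23.3% were called higher and 29.3% lower in papilloma, and 15.8% and 22.7% in carcinoma.

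To compare levels between genes, normalised reads were divided by the length of the merged exons. In CHR, Ago2 was first with 294 ± 58.8 reads per kb (mean ± SD, n = 6), followed by Xpo5 with 244 ± 9.81, Ago1 with 206 ± 23.1, Prkra with 179 ± 15.2, Dicer1 with 172 ± 2.77, Ago4 with 130 ± 10.8, Dgcr8 with 129 ± 6.71, Drosha with 122 ± 11.4, Ago3 with 119 ± 8.26 and Tarbp2 with 27.5 ± 3.15. Dicer1 stood clear of Ago4, and Ago3 of Tarbp2, while all other neighbours in this order overlapped in range. In papilloma Xpo5 was first with 353 ± 60.8 reads per kb, above Ago2 with 264 ± 59.7 in 5 of 6 mice, and in carcinoma the values were 311 ± 32.6 and 224 ± 38.2, again in 5 of 6 mice. Ago3, Ago4 and Tarbp2 were the last in both lesions, with 98.1 ± 31.4, 77.4 ± 48.6 and 33.8 ± 3.43 in papilloma and 93.6 ± 26.3, 60.5 ± 27.9 and 32.1 ± 9.58 in carcinoma. In both lesions each gene overlapped in range with the next in the order.

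The 4 Argonaute genes summed to 750 ± 70.0 reads per kb in CHR, 628 ± 190 in papilloma and 521 ± 78.6 in carcinoma (mean ± SD, n = 6). The 6 carcinomas, from 371 to 587, all lay below the CHR samples, from 646 to 831, while the papillomas spread from 450 to 936. Ago2 formed 39.0 ± 4.37% of this sum in CHR, 43.4 ± 9.54% in papilloma and 43.5 ± 6.78% in carcinoma. Ago4 formed 17.5 ± 2.76%, 11.6 ± 4.11% and 11.3 ± 4.65%, Ago1 27.5 ± 2.09%, 29.3 ± 4.22% and 27.5 ± 2.82%, and Ago3 16.0 ± 1.61%, 15.7 ± 2.17% and 17.7 ± 3.38%. The share of Ago4 was lowest in the papilloma of mouse 2 (6.43%) and the carcinoma of mouse 9 (5.44%), and all shares overlapped between groups. No test was made on the sum or the shares.

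**Figure D3:**
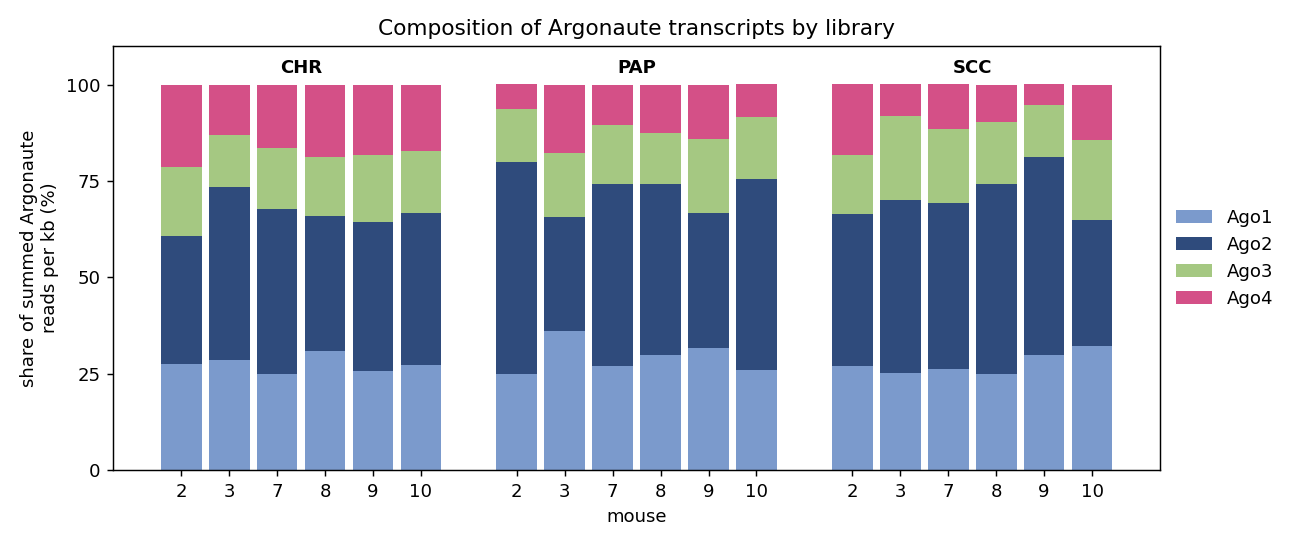
Share of each Argonaute gene in the summed Argonaute reads per kb (y axis, percent) in each of the 18 libraries, grouped as CHR, PAP and SCC with mouse numbers below the bars. The Ago4 segment averages 17.5% in CHR and 11.6% and 11.3% in the lesions, and is thinnest in the carcinoma of mouse 9.

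The same lesions were often at the ends of their groups. The papilloma of mouse 2 and the carcinoma of mouse 9 were the lowest of their groups for Dicer1, Ago1, Ago3 and Ago4 and the highest for Drosha and Tarbp2. Long and short genes deviated differently in the carcinoma of mouse 9, where genes with 6754 bp of exons or more lay lower than those with at most 2709 bp, relative to the other carcinomas, by -0.32 on the log2 scale. In the other 17 libraries this difference was between -0.10 and 0.13, and in the papilloma of mouse 2 it was -0.04. Of the 10 genes, Dgcr8, Dicer1, Xpo5 and the 4 Argonaute genes have long exons in this sense, and the part of length in their values was not tested. Without both libraries, Drosha and Xpo5 were called in both comparisons with CHR and Ago4 in carcinoma, while the calls of Dgcr8 in papilloma (adjusted p = 0.0857) and Ago1 in carcinoma (adjusted p = 0.0519) were lost.

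Each gene was set beside the gene most like it over the 18 libraries, with the mean of each mouse removed, among 12691 genes with a mean of at least 50 normalised reads. The libraries share animals and the group differences, so r is a description. Besides Polr1c for Xpo5, these were Zfp622 for Drosha (r = 0.97), Alg2 for Dgcr8 (0.93), Ppp2r5e for Dicer1 (0.94), Nt5c for Tarbp2 (0.92), Acd for Prkra (0.91), Rnf167 for Ago1 (0.96), BC005537 for Ago2 (0.90), Baz2b for Ago3 (0.93) and D4Wsu53e for Ago4 (0.94). Among the 45 pairs of the 10 genes, Drosha and Xpo5 had r = 0.85 and Dgcr8 and Xpo5 r = 0.82, while Drosha had r = -0.79 with Ago4 and -0.78 with Ago3.

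The other steps of the microRNA pathway, and the PIWI genes, were described by 76 further genes, 73 of them in the table. In papilloma 32 were called higher and 4 lower, with a median log2 fold change of 0.26 against 0.00 over all genes. In carcinoma against CHR 21 were higher and 5 lower, with a median of 0.17 against -0.02, and in carcinoma against papilloma 1 was higher and 3 were lower. For these and the lists below, the shares over all genes were 23.3% higher and 29.3% lower in papilloma, and 15.8% and 22.7% in carcinoma. Between carcinoma and papilloma they were 8.75% and 1.10%. Of the microprocessor cofactors, a list that also held Ran of the export step, 9 of 15 were higher and 0 lower in papilloma, and 7 and 0 in carcinoma. Ran, the GTPase that loads exportin 5, rose from 120 ± 15.3 (mean ± SD, n = 6) to 254 ± 56.1 normalised reads in papilloma and 233 ± 65.7 in carcinoma, with log2 fold changes of 0.77 ± 0.12 (adjusted p = 1.87e-04) and 0.66 ± 0.12 (adjusted p = 0.00121). The RNA helicases of the microprocessor, Ddx5 and Ddx17, were not called, with -0.22 and -0.06 in papilloma.

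**Figure D4:**
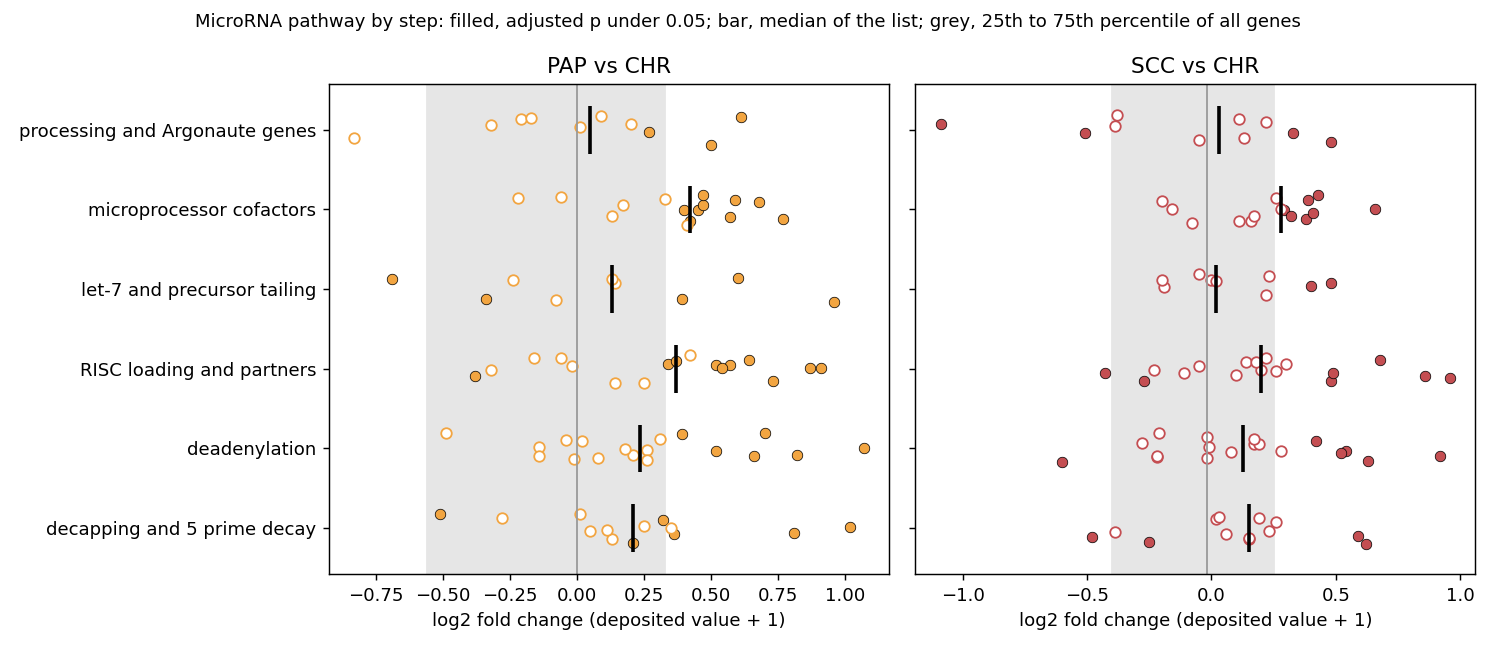
Log2 fold change (x axis, log2 of the deposited value + 1) of the 10 genes and of 5 other lists of the pathway in papilloma and in carcinoma against CHR, with filled points for an adjusted p under 0.05 over all genes, a black bar at the median of each list and a grey band from the 25th to the 75th percentile of all genes. The bar of the microprocessor cofactors is at 0.42 in papilloma and 0.28 in carcinoma, and that of the 10 genes at 0.05 and 0.03.

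Among genes listed for let-7 and for the tailing or trimming of microRNA precursors, 3 of 9 were higher and 2 lower in papilloma, and 2 and 0 in carcinoma. Zcchc11, a uridyl transferase acting on the let-7 precursor, fell from 794 ± 116 to 468 ± 110 normalised reads in papilloma (-0.69 ± 0.15, adjusted p = 0.00154) and was higher in carcinoma than in papilloma (0.50 ± 0.15, adjusted p = 0.0470). Zc3h12a, a ribonuclease that cuts precursor hairpins, rose from 928 ± 270 to 1967 ± 687 (0.96 ± 0.29, adjusted p = 0.0153) and had 1217 ± 689 in carcinoma, which was not called. Xrn2, a nuclear 5′ to 3′ exonuclease, rose in papilloma (0.60 ± 0.13, adjusted p = 0.00172) and carcinoma (0.48 ± 0.13, adjusted p = 0.0107). Lin28a and the PIWI genes Piwil1 and Piwil4 had no row, and Piwil2 was not called in any comparison.

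Of 17 genes for loading and partners of the Argonaute proteins, 9 were higher and 1 lower in papilloma, and 5 and 2 in carcinoma. Hsp90ab1, a chaperone that opens Argonaute for the duplex, rose from 11495 ± 781 to 16585 ± 1780 reads in papilloma (0.52 ± 0.10, adjusted p = 0.00109) and was lower in carcinoma than in papilloma (-0.38 ± 0.10, adjusted p = 0.0380). The LIM proteins Wtip (0.91 ± 0.11, adjusted p = 2.85e-05, in papilloma) and Ajuba (0.96 ± 0.24, adjusted p = 0.00842, in carcinoma) had the largest increases of this list. Another LIM protein, Limd1, had -0.16 in papilloma (adjusted p = 0.177) and was called lower in carcinoma (-0.27, adjusted p = 0.0383). Tnrc6c, a GW182 scaffold that binds Argonaute, fell from 2220 ± 171 to 1713 ± 341 reads in papilloma (-0.38 ± 0.13, adjusted p = 0.0234) and 1682 ± 449 in carcinoma (-0.43 ± 0.13, adjusted p = 0.0187). Its paralogs Tnrc6a and Tnrc6b had -0.06 and -0.02 in papilloma and were not called.

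Downstream, 6 of 18 deadenylation genes were higher and 0 lower in papilloma, and 5 and 1 in carcinoma. Pabpc1, the poly(A)-binding protein, rose from 1225 ± 117 to 2707 ± 718 reads in papilloma (1.07 ± 0.18, adjusted p = 3.31e-04) and 2470 ± 769 in carcinoma (0.92 ± 0.18, adjusted p = 0.00179). Btg2, which recruits the deadenylase complex, fell in carcinoma (-0.60 ± 0.22, adjusted p = 0.0450), and Pan2, a deadenylase, was lower in carcinoma than in papilloma (-0.40 ± 0.11, adjusted p = 0.0338). Of 13 decapping and decay genes, 5 were higher and 1 lower in papilloma, and 2 and 2 in carcinoma. Lsm2, of the ring that binds deadenylated messengers, rose from 148 ± 20.0 to 373 ± 55.9 reads in papilloma (1.02 ± 0.12, adjusted p = 1.67e-05) and 267 ± 69.6 in carcinoma (0.62 ± 0.12, adjusted p = 0.00160), and carcinoma was lower than papilloma (-0.41 ± 0.12, adjusted p = 0.0483). Dcp1b, a coactivator of decapping, fell from 197 ± 12.2 to 124 ± 47.4 (-0.51 ± 0.14, adjusted p = 0.00785) and 125 ± 32.0 (-0.48 ± 0.14, adjusted p = 0.0170). The calls between carcinoma and papilloma rest on all 18 libraries, since 0 of the 73 genes were called when the 12 PAP and SCC libraries were fitted alone.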

How the data were processed

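Messenger RNA was sequenced from CHR, PAP and SCC of 6 mice (18 libraries). The authors aligned reads to mm10, counted them per gene with HTSeq and stabilized the variance with DESeq2. The deposited values are a score on the linear scale of that transformation, rounded to whole numbers, in which 0 reads appear as 39. Versions and strandedness were not given in the sources used here. The paper also describes a correction for experimental batches, which gave every batch an equal median for each gene. The sample titles name no batch, and none was modelled here. The transformation was inverted (fitted zero level 39.11), and 98.3% of values returned exactly from whole reads. Of values under 100, 99.6% did so. This used the size factor of each library and no scaling per gene and batch, so an effect of a batch may remain in the values tested. Size factors were 0.834 to 1.177 and recovered depth was 15.4 to 21.0 M reads (median 18.9 M), so that depth limits low genes most. The tests rest on how far differences within a mouse vary between mice. The scale compresses the changes of low genes.

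Values as log2(value + 1) were tested with limma (version 3.58.1, R 4.3.3), all 18 libraries in 1 fit, with the mouse as a block, since the 3 samples of a number come from the same animal. Deviations of same-numbered samples from the group means correlated from -0.24 to 0.51. Of 14542 rows, 21 carried a number for a symbol (at most 0.236% of a library's total) and were left out. The test is two-sided, with Benjamini-Hochberg adjustment over 14521 genes. On simulated data for PAP against CHR over 14521 genes it recovered 24% of genes changed 1.5-fold, 64% at 2-fold, 80% at 3-fold and 88% at 4-fold, and called 0.0419% of unchanged genes. Only 50 genes were changed at each fold, beside 14321 unchanged ones. The adjustment is stricter where few genes change, and 52.6% were called in the real comparison, so these rates do not carry over to it. Ratios were tested by flipping the sign of each mouse's difference.

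Groups and mouse numbers came from the sample titles. Positions came from GENCODE M21 (GRCm38), in which symbols were looked up (14446 genes, 99.5%, 595 through an older symbol). Promoters and microRNAs were those of RefSeq. No library was a copy of another, since in 153 pairs the share of equal values reached 2.24%. The genes, the lists (pathway steps, and keratinocyte, skeletal muscle, adipocyte, dermal fibroblast, endothelial, myeloid, T cell, sebaceous gland and proliferation markers) and the tests were chosen with earlier results of these data known. All 10 genes are named. From each other list of the pathway, the called genes with the largest increase and decrease against CHR and all called between SCC and PAP are named, and for each of the 10 genes the most correlated gene. Genes named beside the rule (Polh, Clspn, Trmt2a, 6030458C11Rik, Ddx5, Ddx17, Limd1, Tnrc6a, Tnrc6b) were chosen after their values were seen. Alternatives were no block, limma-voom on recovered reads, log2(normalised count + 1), a pseudocount of 10, TMM scaling with log2(CPM + 1), a minimum mean of 10 normalised reads, the 12 compared libraries alone, and leaving out each mouse. Leaving out the papilloma of mouse 2 with the carcinoma of mouse 9 was added after the data were seen.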

Additional observations from a re-analysis of the deposited data

Results flagged for a closer look

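A library was set apart where its gap to the nearest of the 6 in its group, divided by the range of the group, was above Dixon's 95% critical value, and 51 groups of 6 were examined, in which chance alone flags about 1 in 20. In CHR, Ago4 was lowest in mouse 3, with 754 normalised reads (9.70 on the log2 scale, the others 9.94 to 10.02), and the gap was 0.73 of the range. The papilloma of the same mouse had the highest Ago4 of all libraries. In papilloma, the log2 ratio of Prkra to Tarbp2 was highest in mouse 10, with 1.71 where the others had 0.72 to 1.05, and the gap was 0.66 of the range.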

How the results depend on the processing

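Over 420 values of the 10 genes under the 14 alternatives, 377 kept direction and side of the threshold, 17 lost a call, 8 gained one and 18 changed sign, each of these last without a call. Drosha kept its calls against CHR throughout (adjusted p up to 0.0467), as did Xpo5 in papilloma (up to 0.00715). The cause of the other changes was not tested. Where a mouse was left out, the smaller number of libraries and the values of that mouse cannot be told apart. Depth limits low genes most, and 1.5-fold changes were mostly missed in simulation, in which far fewer genes were changed than were called in the real comparison.

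Without the mouse as a block, which pairs the samples of an animal, 1 of the 10 genes was lower in PAP vs CHR (0 with it), and in SCC vs PAP 810 genes were called in place of 1430, 1 other pathway gene in place of 4 and 7 neighbouring genes in place of 11. No other call of the 10 genes changed with the block. With only the 12 compared libraries, 1 of the 10 was lower in PAP vs CHR. Between SCC and PAP, 0 genes were called (2830 at an unadjusted p under 0.05; limma-voom on 18 libraries called 1738), with 0 other pathway genes and 0 neighbours. Under limma-voom 1 of the 10 was lower in SCC vs CHR, as under TMM scaling (1), where 2 other pathway genes were called in SCC vs PAP. Without the papilloma of mouse 2 and the carcinoma of mouse 9, 1 of the 10 was lower in SCC vs CHR, and 2165 genes and 24 neighbours were called in SCC vs PAP. Calls in SCC vs CHR were 41.0% higher, and 50.5% under limma-voom.

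When each mouse was left out, genes called ranged from 6545 to 7319 in PAP vs CHR, 0 (without mouse 7 or 8; 2450 and 2594 at an unadjusted p under 0.05) to 1995 (without mouse 10) in SCC vs PAP, with 471 without mouse 3, and 4214 to 5482 in SCC vs CHR. Of the 10 genes, 2 to 3 were higher and 0 to 2 lower in PAP vs CHR. In SCC vs CHR, 1 to 2 were higher and 0 to 3 lower, and 0 were called in SCC vs PAP. Other pathway genes called ranged from 27 to 39, 0 to 5 and 15 to 22, and neighbours from 49 to 63, 0 to 20 and 22 to 37, in PAP vs CHR, SCC vs PAP and SCC vs CHR. The log2 ratio of Dgcr8 to Drosha ranged from -0.41 to -0.29, -0.02 to 0.21 and -0.32 to -0.14, that of Prkra to Tarbp2 from -0.28 to -0.01, -0.01 to 0.22 and -0.09 to 0.08, and that of Ago2 to Ago1 from -0.12 to 0.24, -0.11 to 0.28 and 0.01 to 0.26. With 5 mice the exact test cannot go below 0.0625. The sign changed for Ago2 to Ago1 in PAP vs CHR without mouse 2 (-0.12), 8 or 10 (both -0.02) and in SCC vs PAP without mouse 3 (-0.11) or 9 (-0.01), for Prkra to Tarbp2 in SCC vs PAP without mouse 2 (-0.01) and in SCC vs CHR without mouse 7 (0.03) or 9 (0.08), and for Dgcr8 to Drosha in SCC vs PAP without mouse 10 (-0.02).

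Log2 fold changes with a changed sign were, in PAP vs CHR, Dicer1 without mouse 3 (-0.02), 7 (-0.00), 8 (-0.03) or 10 (-0.03), with a highest value of 0.10 when libraries were left out, and Prkra without mouse 10 (-0.03, highest 0.16). In SCC vs PAP they were Dgcr8 and Tarbp2 without mouse 2 (both 0.01, the latter -0.15 at the lowest), Prkra without mouse 2 (-0.01), 3 (-0.00) or 9 (-0.06, highest 0.12), Ago4 without mouse 3 (0.03, lowest -0.60), Ago3 without mouse 9 (0.07, lowest -0.16), and, without the pair of libraries named above, Dgcr8 (0.02) and Prkra (-0.04). In SCC vs CHR they were those of Dicer1 under limma-voom (0.01), under TMM scaling (0.01), without mouse 9 (0.06) and without that pair (0.03). Shares without division by length were, for CHR, PAP and SCC, 19.3%, 20.1% and 18.6% for Ago1, 23.0%, 22.0% and 24.3% for Ago3 and 10.5%, 6.89% and 6.58% for Ago4, with 47.2% in CHR and 50.5% in SCC for Ago2.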
